A study of Mus musculus with 20 samples.

Results

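The nuclear-encoded subunits of the respiratory chain were described in mouse liver. They were chosen by gene symbol, as genes named Nduf (A, B, C, S or V series), Sdha to Sdhd, Uqcr, Cyc1, Cox4 to Cox8 or Atp5, without a pseudogene suffix and with a mean normalized count of at least 100 in both the male and the female table. The rule gave 79 genes of the 56884 listed for males and the 18149 listed for females. Of these, 36 belong to complex I, 4 to complex II, 9 to complex III, 12 to complex IV and 18 to ATP synthase.

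The study profiled livers of 11 to 14 week old mice in which a gene-trap cassette sits in an intron of Midn, which encodes midnolin, a nuclear protein that works with the proteasome. WT mice carried the expressed configuration of the allele (Midn XTR). In Midn-T mice (Midn TR), Cre driven by the Albumin promoter had inverted the cassette. The paper describes the inactivation as selective for hepatocytes and gives no values by cell type. The trapped allele also turns on a GFP reporter. Whether the WT mice carried Albumin-Cre is not given in the sources used here. RNA-seq was made from 3 WT and 3 Midn-T livers of each sex, and ATAC-seq, not analysed here, from 2 of each. The values used here are the authors' means over the 6 RNA-seq libraries of 1 sex, WT and Midn-T together, so they carry no error and no comparison of genotypes is made. The mean for Midn itself was 1672 normalized counts in males and 1357 in females.

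The respiratory chain sits in the inner mitochondrial membrane. Complexes I and II take electrons from NADH and succinate, complex III passes them from ubiquinol to cytochrome c, complex IV gives them to oxygen, and ATP synthase uses the proton gradient that complexes I, III and IV build. Complexes I, III, IV and ATP synthase combine subunits of the mitochondrial genome with many more from the nucleus, and all subunits of complex II are nuclear. Hepatocytes hold many mitochondria, and several subunits of complex IV exist as a widely expressed form and as forms of muscle or testis.

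Promoter sequences are shown for genes whose motifs or isoform pairs are described further on. They come from RefSeq on the build GRCm38.p6 and run 5′ to 3′ on the gene's strand, from 250 bases before the start site to 50 after it. Capitals mark exact matches, on either strand, to GCGCANGCG (the NRF1 motif, for nuclear respiratory factor 1), CCGGAAG (the ETS motif, bound by GABP and other ETS factors) or AAGATGGC (the YY1 motif). They are shown as examples of members that hold these motifs. The windows of Cox6a1 at chr5:115348909-115349208 (minus strand), Sdha at chr13:74350191-74350490 (minus strand) and Sdhd at chr9:50603800-50604099 (minus strand) hold matches to the NRF1 motif, and those of Cox6a1 and Sdhd also to the ETS motif. The second window of Atp5pf, at chr16:84834927-84835226 (minus strand), holds the YY1 and the ETS motif.
Cox6a1: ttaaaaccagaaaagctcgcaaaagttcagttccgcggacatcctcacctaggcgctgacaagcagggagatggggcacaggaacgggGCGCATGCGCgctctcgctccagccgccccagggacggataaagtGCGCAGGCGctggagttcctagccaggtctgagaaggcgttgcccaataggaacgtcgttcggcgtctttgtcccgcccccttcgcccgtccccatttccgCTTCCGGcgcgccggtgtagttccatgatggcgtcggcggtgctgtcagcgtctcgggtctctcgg
Sdha: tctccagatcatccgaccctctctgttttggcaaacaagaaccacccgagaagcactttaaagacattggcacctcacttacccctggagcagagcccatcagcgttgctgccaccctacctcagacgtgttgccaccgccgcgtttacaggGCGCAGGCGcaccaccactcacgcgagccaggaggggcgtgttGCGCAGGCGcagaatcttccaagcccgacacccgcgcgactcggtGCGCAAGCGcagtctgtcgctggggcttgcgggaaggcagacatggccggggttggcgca
Sdhd: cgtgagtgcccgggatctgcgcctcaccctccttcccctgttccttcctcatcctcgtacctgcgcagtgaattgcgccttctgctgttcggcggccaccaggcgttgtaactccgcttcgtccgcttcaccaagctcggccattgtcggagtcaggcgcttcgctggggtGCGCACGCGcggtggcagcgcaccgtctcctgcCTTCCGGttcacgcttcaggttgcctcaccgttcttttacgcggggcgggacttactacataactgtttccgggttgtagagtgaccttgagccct
Atp5pf: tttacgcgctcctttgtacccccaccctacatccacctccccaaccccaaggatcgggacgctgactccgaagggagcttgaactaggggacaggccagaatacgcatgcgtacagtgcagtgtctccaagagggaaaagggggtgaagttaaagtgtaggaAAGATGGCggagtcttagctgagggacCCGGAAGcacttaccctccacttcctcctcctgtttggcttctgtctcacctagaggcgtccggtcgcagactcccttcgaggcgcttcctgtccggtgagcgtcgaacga

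For 2 pairs of complex IV isoforms, the form among the members is set beside its muscle form. The Cox8a window at chr19:7217567-7217866 (minus strand) holds 2 matches to the ETS motif, and the Cox8b window at chr7:140900397-140900696 (minus strand) holds no match to the 3 motifs. Neither Cox7a2 at chr9:79759804-79760103 (minus strand) nor Cox7a1 at chr7:30183921-30184220 (plus strand) holds one.
Cox8a: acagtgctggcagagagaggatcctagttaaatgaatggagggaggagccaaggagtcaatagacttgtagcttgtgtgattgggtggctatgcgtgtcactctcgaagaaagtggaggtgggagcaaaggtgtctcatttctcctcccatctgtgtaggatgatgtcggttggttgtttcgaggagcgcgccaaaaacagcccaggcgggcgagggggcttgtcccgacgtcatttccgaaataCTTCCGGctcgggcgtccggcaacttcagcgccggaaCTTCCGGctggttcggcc
Cox8b: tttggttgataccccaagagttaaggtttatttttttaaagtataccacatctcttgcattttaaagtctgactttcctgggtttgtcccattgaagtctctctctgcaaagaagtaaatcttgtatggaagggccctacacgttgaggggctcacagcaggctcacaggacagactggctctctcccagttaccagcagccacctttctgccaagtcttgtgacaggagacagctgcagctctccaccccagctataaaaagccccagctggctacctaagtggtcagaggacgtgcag
Cox7a2: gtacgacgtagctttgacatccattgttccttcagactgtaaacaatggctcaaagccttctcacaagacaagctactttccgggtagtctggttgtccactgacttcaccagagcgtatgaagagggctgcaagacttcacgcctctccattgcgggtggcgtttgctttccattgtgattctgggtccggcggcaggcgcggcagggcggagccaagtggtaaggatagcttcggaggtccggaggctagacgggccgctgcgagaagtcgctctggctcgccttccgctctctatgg
Cox7a1: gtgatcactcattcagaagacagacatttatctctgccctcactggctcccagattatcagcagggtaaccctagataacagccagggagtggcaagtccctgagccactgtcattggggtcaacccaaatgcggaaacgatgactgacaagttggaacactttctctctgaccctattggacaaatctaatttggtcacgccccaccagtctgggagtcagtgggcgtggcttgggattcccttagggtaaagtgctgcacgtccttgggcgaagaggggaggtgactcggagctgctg

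The members' median level per kb was 4.48 to 8.13 times that of the genes tested that have the length used, over both sexes and all lengths tried. The upper value is per kb of coding sequence, over the 10076 genes tested that have one. The mean normalized count of the members ran from 283 to 25179 in males, with a median of 1978, and from 365 to 24210 in females, with a median of 1915. Over the 10793 genes with a mean of at least 100 in both tables the medians were 727 and 728. Together the members made up 0.770% of all normalized counts in males and 0.725% in females. The defining genes of hepatocytes were high, since the lowest of 8 markers, Fah, stood at 12791 in males and 14465 in females. Markers of other liver cells were present too. The median mean of 5 Kupffer cell and leukocyte markers was 1040 in males and 1091 in females. For 6 endothelial and stellate markers it was 1885 and 2446, and for 4 cholangiocyte markers 30.4 and 46.8. The values are those of whole liver, and the part of each cell type was not tested.

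The mean of 100 fell in a wide gap, so it decided little. Just inside it in males were Atp5if1 at 283, Ndufb8 at 317, Ndufb2 at 350, Ndufc1 at 633 and Ndufs5 at 638 mean normalized counts. Just outside were Ndufa4l2 at 24.3, Cox7a1 at 18.9, Ndufs6b at 8.65, Ndufb4b at 6.40 and Cox6b2 at 4.87. Of 94 matching genes without a pseudogene suffix in the male table, 15 stayed outside, and 5 of these were listed at 0. The female table, whose lowest mean was 6.61, lists 3 of the 15, which were Ndufa4l2 at 26.1, Cox7a1 at 22.7 and Ndufs6b at 9.59.

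**Figure D1:**
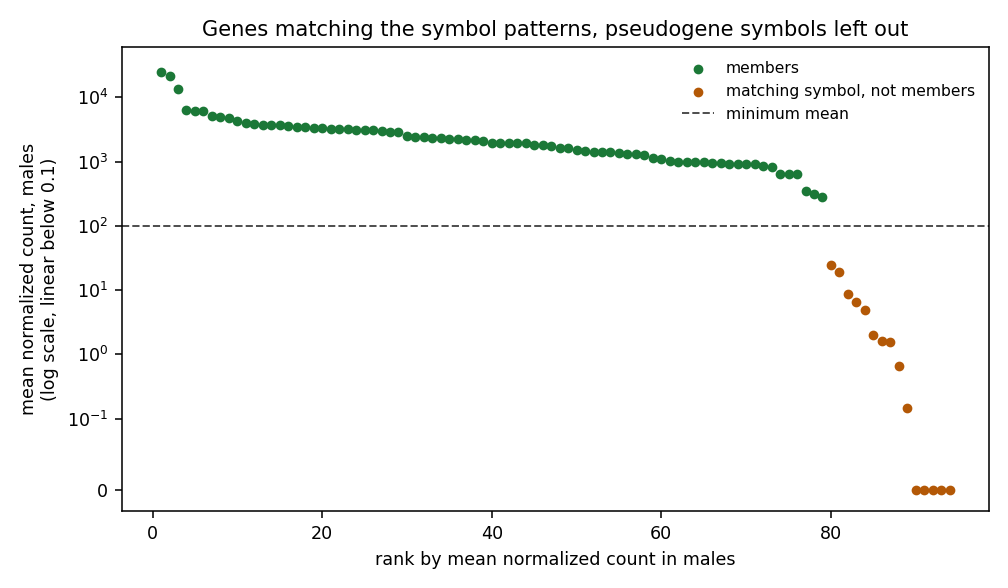
Mean normalized count in males (log scale, linear below 0.1) of each gene that matches the symbol patterns, ordered by rank, with the minimum mean of 100 as a dashed line. The 79 members lie at 283 or above and the 15 other genes at 24.3 or below.

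Of the 15 genes outside, 7 were forms of complex IV subunits known from other tissues. Cox4i1, the common form of the largest nuclear subunit of complex IV, had a mean of 6328 normalized counts in males, against 1.56 for Cox4i2, a form best known from the lung. Cox6a1 stood at 3212 and its heart and muscle form Cox6a2 was listed at 0. Cox8a stood at 2277 and its heart, muscle and brown fat form Cox8b at 0.148. Of the testis forms, Cox6b2 stood at 4.87 beside Cox6b1 at 3511, and Cox7b2 and Cox8c were listed at 0 beside Cox7b at 2953 and Cox8a at 2277. Of the muscle forms, Cox7a1 was the one listed in both sexes.

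For Cox7a1 the gap was large under every length used. Cox7a2, the liver form, had a mean of 2514 in males and 2127 in females, and Cox7a1 had 18.9 and 22.7. Per kb of annotated exon the level of Cox7a2 was 13.6 times that of Cox7a1 in males and 9.54 times in females, and per kb of coding sequence 94.2 and 66.2 times. Ndufa4, once counted with complex I and now known as a subunit of complex IV, stood at 3708 and 3406, and its hypoxia-linked relative Ndufa4l2 at 24.3 and 26.1. The level of Ndufa4 per kb of annotated exon was 20.3 and 17.3 times that of Ndufa4l2, and per kb of coding sequence 121 and 103 times.

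Markers of muscle and testis were read in the same means. Of 7 striated muscle markers in the male table, 2 were listed at 0 and the highest, Tnnt2, stood at 14.1. Of 4 sperm markers, 3 were at 0, and the fourth was Cox6b2 itself. Of 3 brown fat markers, Ucp1, which defines that tissue, was listed at 0 in males and Cidea at 0.148, and Ppara, which hepatocytes also express, stood at 8738.

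Levels per kb of length were used to compare genes within and between complexes, since a mean count also grows with transcript length. They were scaled so that all genes with the length used sum to 1e+06. The fixed length was the union of all annotated exons, which had a median of 4151 bases over the members, against 1101 for the canonical transcript and 435 for the coding sequence. The levels per kb of coding sequence are therefore given beside it, and where an order changed with the length this is said. With the exon union the median level of the members was 71.3 in males and 65.4 in females, against 14.9 and 14.6 over all genes tested. Per kb of coding sequence the medians were 197 and 191, against 24.2 and 24.2 over the 10076 genes tested that have a coding sequence.

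**Figure D2:**
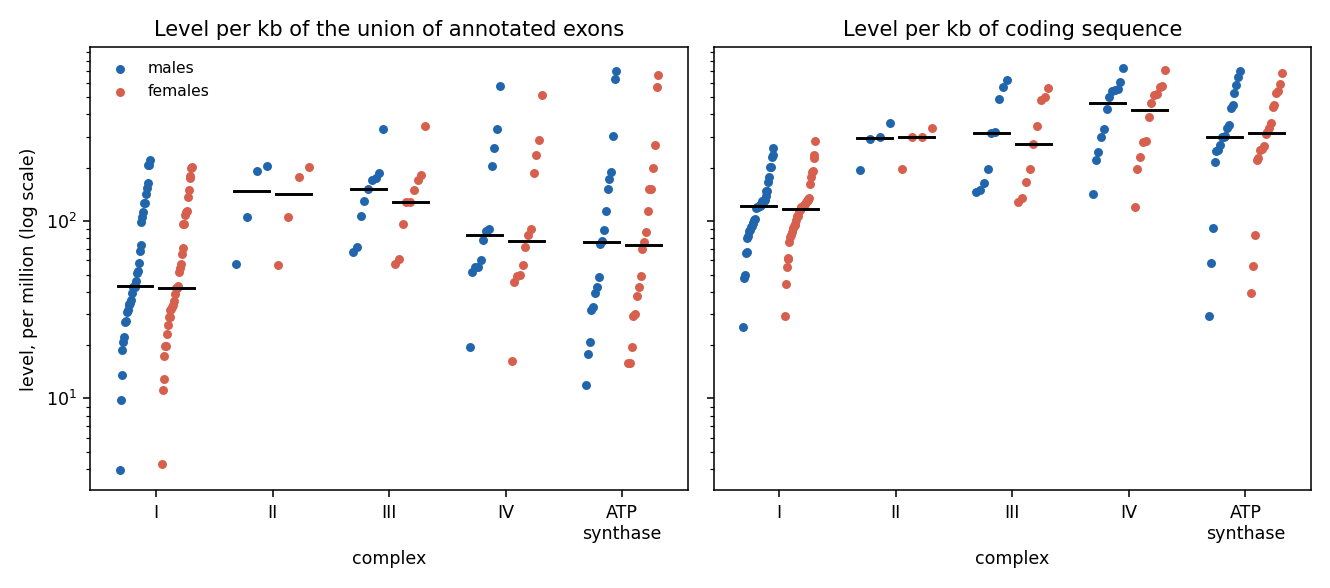
Level of each member by complex (log scale), in males and females, with black lines at the medians. Levels are per kb of the union of annotated exons on the left and per kb of coding sequence on the right. They are scaled so that all genes with the panel's length sum to 1e+06. The 36 genes of complex I have the lowest median in both panels, 43.1 and 121 in males.

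Complex I had the lowest median of the complexes. Its level per kb of annotated exon had a median of 43.1 in males and 42.1 in females, and the other complexes had medians from 76.2 to 153 in males and from 73.2 to 141 in females. The order held with all lengths tried, and per kb of coding sequence the median of complex I was 121 in males, against 294 or more for the others. Which of the other complexes was highest changed with the length.

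Among the 7 nuclear core subunits of complex I, which carry the flavin and the iron-sulfur clusters, Ndufs7 stood at 994 mean normalized counts in males and 925 in females. Ndufs1, the largest core subunit, stood at 3942 in males and 3944 in females. Ndufv1, which holds the site of NADH oxidation, stood at 3157 and 2839, and its partner Ndufv2 at 2160 and 2164. These counts also grow with length. Per kb of annotated exon Ndufs1 stood at 42.4 and Ndufs7 at 45.8 in males. Per kb of coding sequence they stood at 80.6 and 66.0.

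The 29 accessory subunits, which surround and stabilize the core, ranged from 3.94 to 220 per kb of annotated exon in males. Ndufa1 was highest by this measure and Ndufb2 lowest, and neither end held with all lengths. Per kb of coding sequence the highest was Ndufa6, at 260 in males and 283 in females, and the lowest Ndufb8, at 25.3 and 29.3. Its means were 317 and 365 normalized counts. Of its canonical transcript, 68.6% of bases lie in exons of another gene on the same strand, Gm20538, and the part of that overlap in its count was not tested.

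Complex II, which also belongs to the TCA cycle, has 4 members. Sdha, the flavoprotein that oxidizes succinate, stood at 13280 mean normalized counts in males and 13169 in females. Sdhb, the iron-sulfur subunit, stood at 3705 and 3725, and the membrane anchors at 3303 and 3363 for Sdhc and at 3804 and 3563 for Sdhd. Sdhb had the lowest level per kb of the complex with all lengths tried. Sdha was highest with the exon union and Sdhd with the coding sequence. The ratio of Sdha to Sdhb was 3.60 in males per kb of annotated exon and 1.52 per kb of coding sequence.

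Of the 9 members in complex III, Uqcrc2 and Uqcrc1, the core proteins, stood at 5003 and 4687 normalized counts in males and at 5047 and 4316 in females. The electron-carrying subunits were Uqcrfs1, the Rieske iron-sulfur protein, at 3625 and 3585, and Cyc1, cytochrome c1, at 3271 and 2776. The small subunit Uqcr10 stood at 1345 and 1169. Per kb of annotated exon Uqcrb was highest, at 331 and 346, and Uqcr11 lowest, at 66.6 and 57.4. Neither end held with all lengths. Per kb of coding sequence Uqcrq was highest, at 625 and 562, and Uqcr11 stood at 571 and 504. By that length the lowest were Uqcrc1 in males, at 145, and Cyc1 in females, at 128.

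In complex IV the means of the 12 members lay between 1646 and 6328 normalized counts in males and between 1397 and 5861 in females. Cox7a2l, which takes part in joining complexes III and IV into supercomplexes, was lowest per kb with all lengths tried, at 19.4 in males per kb of annotated exon and 141 per kb of coding sequence. The highest per kb was Cox6a1, at 581, with the exon union, and Cox6c, at 735, with the coding sequence. Cox5a and Cox5b, which lie beside the core of the complex, stood at 2931 and 2124 mean normalized counts in males.

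Of the 18 genes of ATP synthase, Atp5f1b and Atp5f1a, the beta and alpha subunits of the catalytic head, which are present in several copies per enzyme, had means of 25179 and 21777 normalized counts in males and of 24210 and 20042 in females. The subunits of the central stalk were Atp5f1c (gamma) at 5063, Atp5f1d (delta) at 3356 and Atp5f1e (epsilon) at 1838 in males. Atp5f1b had the highest level of the enzyme's genes per kb with all lengths tried. Its ratio to Atp5f1c was 7.91 in males per kb of annotated exon and 2.80 per kb of coding sequence. Its ratio to Atp5f1e was 9.02 and 1.35. The order of the central stalk subunits changed with the length. In males Atp5f1c, Atp5f1d and Atp5f1e stood at 88.7, 174 and 77.8 per kb of annotated exon. Per kb of coding sequence they stood at 252, 297 and 525.

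The peripheral stalk, which holds the head still, was represented by Atp5pb at 6038, Atp5pd at 3253, Atp5pf at 3145 and Atp5po at 830 mean normalized counts in males. In females they stood at 6133, 3333, 3258 and 797. Atp5if1, the inhibitor that stops the enzyme from running backwards, stood at 283 in males and 382 in females. The level of Atp5f1b per kb of annotated exon was 58.6 times that of Atp5if1 in males and 41.8 times in females, and per kb of coding sequence 24.4 and 17.4 times.

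The c ring is encoded by 3 genes whose mature proteins are the same and whose import sequences differ. Atp5mc3 stood at 6200 mean normalized counts in males and 5561 in females, Atp5mc1 at 1975 and 2023 and Atp5mc2 at 902 and 819. Per kb of annotated exon Atp5mc3 made up 83.5% of their summed level in males and 82.0% in females. Only uniquely mapped reads were counted, and of the canonical transcript of Atp5mc2 12.5% of the 100-base sequences had no second exact copy in the genome, against 34.1% for Atp5mc1 and 99.3% for Atp5mc3. Scaling the lengths by these shares lowered the ratio of Atp5mc3 to Atp5mc2 from 17.0 to 2.14 in males, and that to Atp5mc1 from 7.17 to 2.46. The paper's reads were paired and longer than 100 bases, so a larger share of them may map uniquely, which was not tested. With the coding length the ratios in males were 7.12 and 3.03, and with the canonical transcript 5.09 and 1.94.

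Other members also have near-identical copies elsewhere in the genome, and 10 of the 79 had under 80% single-copy sequence. Beside Atp5mc1 and Atp5mc2 they were Cox7c at 31.7%, Ndufs5 at 37.8%, Atp5mg at 42.4%, Ndufb4 at 61.9%, Cox7a2l at 72.3%, Uqcrb at 76.0%, Cox5b at 77.8% and Ndufs3 at 79.6%. The other members had higher shares, and 64 had 95% or more. The counts of the 10 genes may miss reads that match a copy, and how many was not tested. The pseudogene with the highest mean was Ndufs5-ps, at 50.1 in males and 39.4 in females.

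The 13 subunits of the mitochondrial genome fell into 2 ranges beside the nuclear members. In males the mean of mt-Co1, the catalytic subunit of complex IV, was 475030 normalized counts, that of mt-Cytb in complex III was 208428, that of mt-Nd6 in complex I 14251 and those of mt-Nd1, mt-Nd2, mt-Nd4 and mt-Nd5 in the same complex lay between 88645 and 151386. By contrast, mt-Co2 stood at 1344, mt-Co3 at 710, mt-Atp6 at 405, mt-Nd4l at 60.6, mt-Nd3 at 52.8 and mt-Atp8 at 42.7. The female means kept the same ranges, from 41.7 for mt-Atp8 to 479824 for mt-Co1.

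The 6 low genes were those with almost no single-copy sequence. For mt-Co2, mt-Co3, mt-Atp6, mt-Atp8 and mt-Nd4l 0% of 100-base sequences had no second exact copy in the genome, and for mt-Nd3 1.20%. The share was 39.2% for mt-Nd4, 69.2% for mt-Co1, 96.8% for mt-Nd2 and 100% for mt-Cytb, mt-Nd1, mt-Nd5 and mt-Nd6. The nuclear members of complex I reached 220 per kb of annotated exon at most in males, and 5 of the 7 mitochondrial subunits of that complex lay above them. The part of the copies in the low values was not tested.

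**Figure D3:**
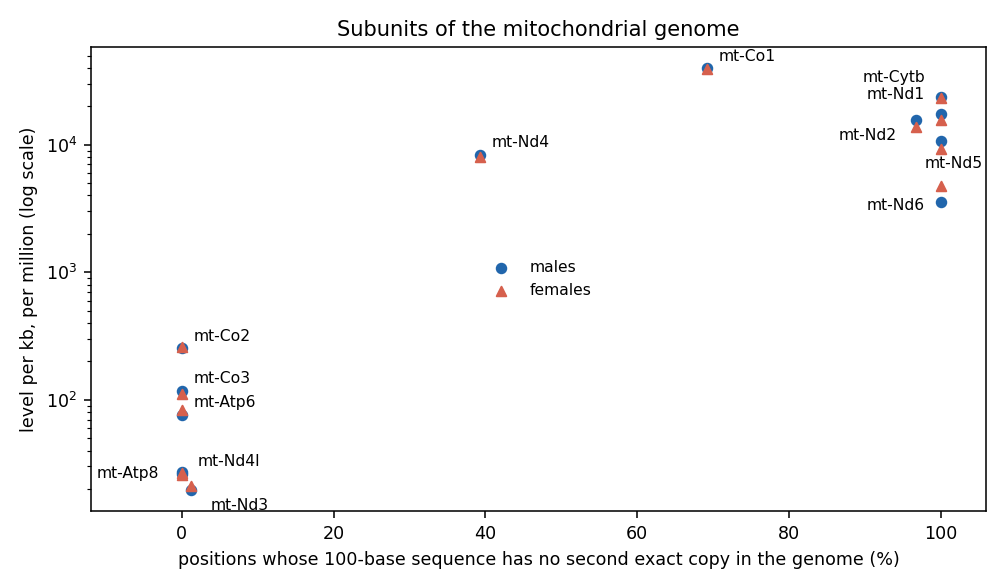
Level per kb (log scale) of the 13 subunits of the mitochondrial genome, in males (circles) and females (triangles). It is scaled so that all genes with an annotated length sum to 1e+06. The horizontal axis is the share of their 100-base sequences that have no second exact copy in the genome. The 6 genes at 1.20% or less lie at 258 or below, and the other 7 at 3538 or above.

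The shares of the members were close in the 2 sexes. The tables were normalized separately, so each mean was taken as a share of its table's sum, and the differences are a description of 2 means with no error. No member reached a 1.5-fold difference in either direction, and 7.24% of all 10793 genes did. A share at least 25% above that of the other sex was found for 1 member, beside 23.2% of all genes. The distance between the quartiles of the members was 0.12 on the log2 scale of female over male share, against 0.32 for all genes tested and 0.29 for the 7538 genes with means at or above the lowest member's in both tables. No set matched to the members' levels was compared. For subunits of the mitochondrial genome with a mean of at least 100 in both tables the distance was 0.14. It was 0.21 for TCA cycle enzymes, 0.23 for electron carriers and linked genes and 0.27 for assembly factors.

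**Figure D4:**
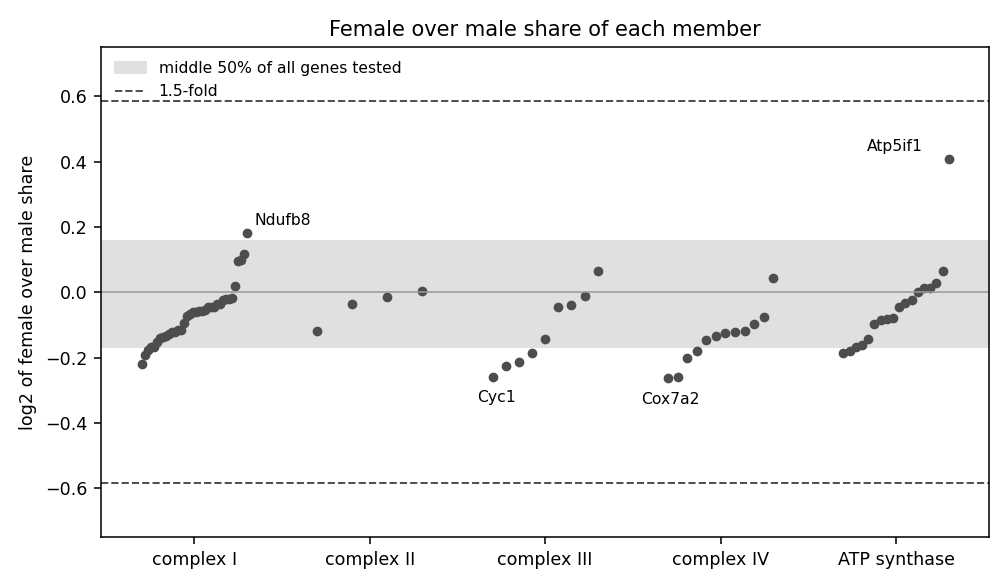
Log2 of the female over the male share of all normalized counts for each member, by complex, with the range between the quartiles of all genes tested in grey and 1.5-fold as dashed lines. All 79 members lie between the dashed lines, with Atp5if1 highest at 0.41.

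The member furthest from an equal share was Atp5if1, with a share of 9.36 per 1e+06 counts in males and 12.4 in females, 1.33 times as much. It was followed by Ndufb8 at 1.13 times, Ndufb2 at 1.08, Ndufa7 at 1.07 and Ndufa6 at 1.07. The lowest female over male shares were those of Cox7a2 at 0.833, Cox7a2l at 0.835, Cyc1 at 0.835, Uqcr10 at 0.856 and Ndufa8 at 0.859. Of all genes tested, 14.8% had a lower ratio than Cox7a2 and 91.4% a lower one than Atp5if1.

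The share was lower in females for 66 of the 79 members, and for 52.9% of all genes tested. The number depended on the scaling. It was 63 when scaled by the median ratio of all genes, 59 with the means as deposited and 47 when the highest genes and the mitochondrial genome were left out of the sums, beside 50.005%, 48.6% and 42.8% of all genes. The median log2 of female over male share was -0.08 over the members and -0.02 over all genes tested. By complex it was -0.06 for complex I, -0.02 for complex II, -0.14 for complex III, -0.13 for complex IV and -0.06 for ATP synthase.

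The 3 members on the X chromosome lay within the range of the others. Their female over male shares were 0.922 for Ndufa1, 0.975 for Ndufb11 and 1.03 for Cox7b. The other members lay on 18 autosomes, and none on chromosome 14.

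Other genes of the pathway gave a frame for these values. The 42 assembly factors with a mean of at least 100 in both tables build the complexes and are not part of them, and 1 of them passed 1.5-fold, Ndufaf4, a complex I factor, at 0.644 times in females. None of the 13 TCA cycle enzymes and none of the 8 electron carriers and linked genes did, and the lowest ratio among the former was 0.681 for Fh1, the fumarase. Of 10 regulators of mitochondrial genes, 1 did, the nuclear receptor Esrra, at 0.659, and the coactivator Ppargc1a stood at 1.47. Beside these counts, 7.24% of all 10793 genes tested passed 1.5-fold. Median levels per kb of annotated exon in males were 10.3 over the 45 assembly factors listed in both tables and 66.1 for the TCA cycle enzymes, beside 71.3 for the members. Per kb of coding sequence they were 29.7, 111 and 197. Ndufab1, the acyl carrier protein of complex I, is outside the symbol patterns and stood at 1353 mean normalized counts in males and 1481 in females.

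Short motifs of known regulators of respiratory genes were counted in the promoter windows of the 66 members that had one, and in those of 8245 of the genes tested. The NRF1 motif was found for 21 members, 31.8%, against 15.7% of the genes tested, and the YY1 motif for 10 members, 15.2%, against 5.63%. The ETS motif was found for 17, 25.8%, against 21.1%. At least 1 of the 3 was found for 40 members, 60.6%, against 36.5% of the genes tested. Of all 27025 genes with a window, 7.03%, 3.19% and 9.93% held the NRF1, YY1 and ETS motif. For Atp5pf, which has more than 1 window, matches in either were counted.

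GGGGCGGG (SP1) was found for 25.8% of members and 35.8% of the genes tested, CCAAT for 40.9% and 43.2%, TATAAA for 9.09% and 9.11% and TGACGTCA (CRE) for 6.06% and 3.55%. Of all genes with a window, 18.4%, 41.1%, 15.7% and 2.03% held these 4. In the windows printed here, Sdha held 3 matches to the NRF1 motif and Cox6a1 held 3, of which 2 overlap. These shares are descriptions of letters in a window and were not tested.

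**Figure D5:**
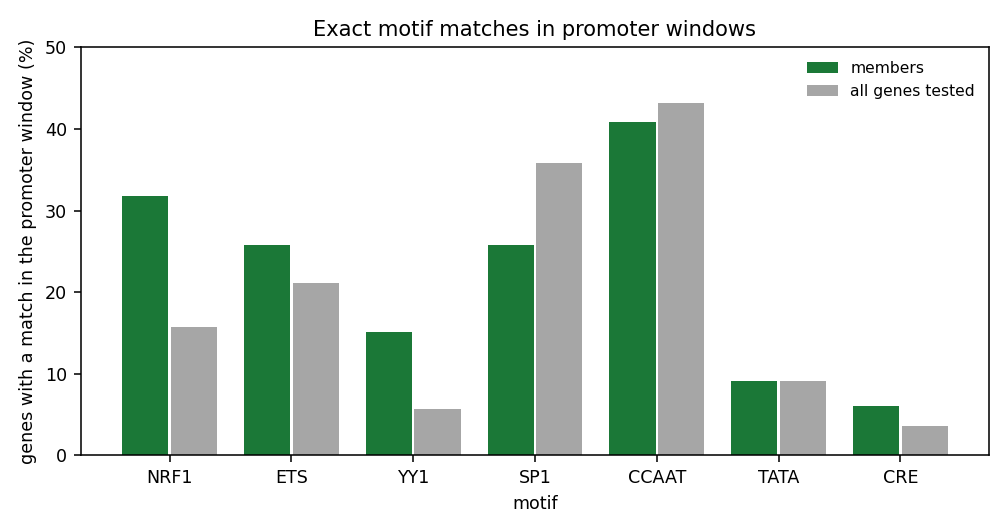
Share of genes with an exact match to each of 7 motifs on either strand of the promoter window, for the 66 members with a window (green) and the 8245 genes tested with one (grey). The members' share is above that of the genes tested for NRF1 (31.8% against 15.7%) and YY1 (15.2% against 5.63%), and below it for SP1 (25.8% against 35.8%).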

How the data were processed

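Per the labels, RNA-seq libraries were made from liver total RNA after removal of ribosomal RNA, with strand kept, and sequenced as paired reads. The authors aligned them to GRCm39 with STAR (2.7 in the submitters' processing notes), used HTSeq, set for reverse-stranded libraries, to count uniquely mapped reads per Ensembl gene, and normalized males and females apart with DESeq2. The signal used here is the authors' deposited mean, over the 6 libraries of 1 sex, of counts divided by size factors. The tables hold no value per library, so depth and spread are unknown. The means sum to 3.03e+07 in males and 3.08e+07 in females. The other deposited columns hold the authors' own comparison of Midn-T with WT (fold changes, standard errors, statistics and p-values) and were not used, nor were the ATAC-seq peak lists.

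Genes were joined on the Ensembl ID. Lengths, exon overlaps and copies (exact 100-base sequences on either strand) came from GENCODE M39 on GRCm39, of which 56323 listed genes are part. It is newer than the authors' annotation. The exon union was the length fixed at the outset. The canonical transcript and its coding length were added after the unions had been seen to be far longer than single transcripts. Promoter windows were matched by symbol or older symbol, for 66 of 79 members. One alternative multiplied the members' exon union by the single-copy share of the canonical transcript. Members, gene lists and named genes (the ends of each complex, isoform pairs, ends of the sex order, genes near the threshold, under 80% single-copy or on X, and Midn) were chosen with earlier results of these data known. Named beyond that rule are role examples within each complex and genes of the other lists. Uqcrhl, in the list of pairs, has no row under that symbol. Functions were tested on simulated data. Tables were made with pandas 2.3.3 and numpy 2.4.6 in Python 3.11.15, with numba 0.67.0 for the copies, scipy 1.17.1 and matplotlib 3.10.9. The values of 1 member are not reported here.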

Additional observations from a re-analysis of the deposited data

How the results depend on the processing

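No paired analysis was possible because the tables hold no value per library, and for the same reason no replicate could be left out. The number of members was 79 with a minimum mean of 50 or joined on symbol and 76 with a minimum of 500. No member passed 1.5-fold between the sexes under any of the 3 other scalings, and with the shares as reported 1 had a share at least 25% above that of the other sex. The 13 members with a higher share in females became 16 with the median ratio, 20 with means not rescaled and 32 without the top 10 genes and the mitochondrial genome. The members' share of all counts was 0.806% in males and 0.766% in females over protein-coding genes, and 0.947% and 0.925% without the top 10 genes and the mitochondrial genome. A minimum mean of 50 or the single-copy share moved no median level per kb by over 1.5 times, which was the limit for medians. With the longest transcript the median of complex I was 69.4 in males and 65.9 in females. With the canonical transcript it was 95.4 and 90.4 for complex I, 333 and 310 (309.7) for complex IV, 205 and 207 for ATP synthase and 132 and 128 for all members. With the coding length it was 121 and 117 for complex I, 294 and 297 for complex II, 312 and 273 for complex III, 465 and 425 for complex IV, 300 (299.7) and 315 for ATP synthase and 197 and 191 for all members. In the 100 bases nearest the start site 14 members (21.2%) held the NRF1 motif, against 8.53% of the genes tested, 13 (19.7%) the ETS motif against 13.7%, 9 (13.6%) the YY1 motif against 3.67%, 8 (12.1%) the SP1 motif against 19.4%, 7 (10.6%) CCAAT against 17.3%, 2 (3.03%) the CRE against 1.95% and 0 TATAAA against 3.36%. Levels between genes therefore rest on the annotation's length, and small differences between the sexes cannot be judged without values per library.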

Other observations

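Of the 14 matching rows with a pseudogene suffix in the male table, 3 were listed at 0. Besides Ndufs5-ps, Atp5pb-ps stood at 22.4 mean normalized counts in males and 16.6 in females, Cox5b-ps at 17.3 and 13.5 and Ndufa12-ps at 11.2 and 13.9. Of these, Ndufs5 and Cox5b are among the 10 members with under 80% single-copy sequence. A second Ensembl gene under the symbol Atp5po was listed at 0 in males, and 9.26% of the canonical transcript of the Atp5po gene described above lies in its exons. On the mitochondrial genome, mt-Nd6, which is read from the opposite strand to the other protein genes, had the highest female over male share of the subunits listed at 100 or more, at 1.34 times, with means of 14251 in males and 19417 in females.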
